A study of Mus musculus with 16 samples.

Results

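The 38 genes described here encode macrophage surface and lysosomal proteins, the C1q subunits of complement, Fc receptors, chemokines that attract monocytes, and the proteins of MHC class II antigen presentation. They were taken by name from the table of 23946 genes measured in the ventricles of mice with a banded pulmonary artery, and all 38 had a row in it. Of these, 35 passed the filter on low values (at least 1 FPKM in 4 or more libraries) and were tested among 12100 genes. Lyz1, Cd53 and Ccr2 did not pass and are given by their values alone. FPKM is the number of fragments scaled to transcript length and to all mapped fragments, so that levels of different genes can be set side by side.

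Macrophages are resident phagocytes of the heart that take up debris and dying cells, remodel matrix and recruit other leukocytes. They make C1q, which binds immune complexes and dying cells and starts the classical complement pathway. They also carry Fc receptors that bind antibody, digest their cargo in lysosomes, and load peptides onto MHC class II proteins for display to helper T cells, with Cd74 (the invariant chain) guarding the peptide groove until loading.

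The study measured polyA RNA from the free walls of the right and left ventricles of adult male FVB mice aged 10 to 13 weeks. Each ventricle had a sham-operated and a banded group of 4 libraries. Banding of the pulmonary artery loads the right ventricle directly and was used to induce its failure, so the left ventricle of the same kind of animal serves as the less directly loaded wall. The banded libraries carry the treatment label PS, read here as banding because the protocol names no other operation. No genetic change is labelled in any group, and the time from operation to sampling is not given in the sources used here. Values below are in the order of libraries 1, 2, 3 and 4 for sham and PS_9552, PS_9553, PS_9561 and PS_9564 for banded groups. Right and left libraries share these numbers, but nothing labelled says that a number is one mouse, and p-values therefore cover the scatter among these libraries alone, part of which may be technical. Cardiomyocyte markers summed to 13091 to 37846 FPKM in every library, as the labelled tissue has.

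Depth was uneven. Fragments assigned to genes, estimated from the steps of low values, ran from 354813 to 1.35e+06 in right ventricular sham libraries, 2.34e+06 to 5.75e+06 in right banded, 1.70e+06 to 4.42e+06 in left sham and 3.59e+06 to 9.23e+06 in left banded libraries. Rn45s, a ribosomal RNA precursor, was listed at 0 in 5 banded libraries (right PS_9561 and PS_9564; left PS_9552, PS_9553 and PS_9561) and was at 44335 to 64943 FPKM in the other 11. Per-library scale factors were at least 1.24 in those 5 and 0.843 to 1.01 elsewhere. A gene is therefore called higher or lower only where it passed an adjusted p of 0.05, with one direction, on 2 scales: the deposited values and those divided by the scale factor ("rescaled"). Rescaling moved the median log2 difference of all tested genes from 0.26 to 0.09 for right ventricular banding and from 0.33 to 0.01 for left ventricular banding.

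These genes were thinly covered in the sham right ventricle. The median member rested on an estimated 5.12 fragments per library there, against 28.5 in the right banded, 15.9 in the left sham and 47.5 in the left banded group. In the right sham group 27 of the 38 members had a median under 10 fragments, against 6, 13 and 3 in the other groups in that order. Members listed at 0 numbered 3 to 10 per library in the right sham group and 0 or 1 in both banded groups. A value of 0 there means that the gene was not detectable at that depth.

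**Figure D1:**
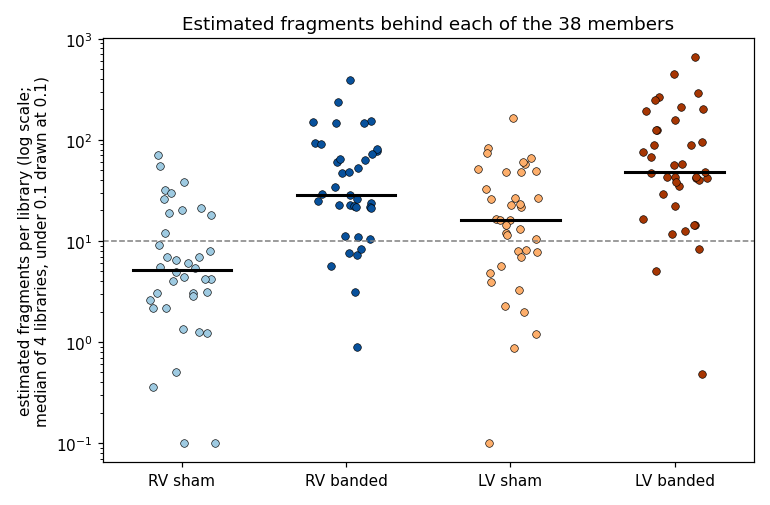
Estimated fragments behind each of the 38 members (y axis, log scale; 1 point per member, the median of the 4 libraries of a group), with the group medians as bars and the dashed line at 10 fragments. The median member sits at 5.12 fragments in the right sham group and at 47.5 in the left banded group.

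The order of the levels was similar in the 4 groups. Lyz2, the macrophage lysozyme, had the highest mean in every group (47.8 to 121 FPKM) and Cd74 the next (31.7 to 75.8 FPKM). The 3 C1q genes, Tyrobp and H2-Aa took ranks 3 to 8 in all groups. Their neighbours in this order did not separate: in the right sham group C1qa spanned 16.7 to 45.8 FPKM, C1qb 19.6 to 34.9 and C1qc 19.9 to 46.7. The pan-macrophage genes Cd68 and Csf1r, the receptor for macrophage colony stimulating factor, were at 1 FPKM or more in all 16 libraries, with medians of 11.02 and 10.1 FPKM. At the other end, Ccr2 (the receptor that draws monocytes out of the marrow) reached 1 FPKM in 2 libraries and Cd53 (a leukocyte tetraspanin) in 3, and Lyz1 was listed at 0 in 12. Cells of a type being fewer and each cell holding less RNA cannot be told apart in whole tissue.

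In the left ventricle the members were higher in banded mice as a group. Their summed level was 349, 266, 292 and 407 FPKM in the sham and 651, 794, 887 and 529 FPKM in the banded libraries, without overlap. After rescaling the same sums were 354, 316, 338 and 448 against 512, 635, 680 and 547, again without overlap. Of the 35 tested members 34 had a log2 difference above 0 as deposited (81.7% of all tested genes) and 32 after rescaling (51.2%), and the median was 0.83 as deposited against 0.33 for all tested genes (0.54 against 0.01 rescaled). C1qb, Lyz2 and Cd74 rose, which is 3 of 35 members where 2.44% of all tested genes were called higher, and no member was called lower, as for all but 0.289% of genes. For 10 members every banded library lay above every sham library on both scales (Cd14, Lyve1, C1qa, C1qb, Fcgr1, Fcgr3, Lyz2, Ctss, Cd52 and Ccl6), against 8.79% of all tested genes, and for 0 members the reverse held, against 0.926%.

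These left ventricular calls depended on single libraries and on the scale. As deposited alone 15 members passed, among 1764 of 12100 genes, while TPM scaling (equal sums in all libraries) left 0 members among 76 genes called in either direction. Leaving out sham library 1, 2 or 3 or banded library PS_9553 or PS_9561 left 0 members called, leaving out banded library PS_9552 or PS_9564 left Lyz2 alone, and leaving out sham library 4 gave 5. With only the libraries that have an Rn45s value, where library PS_9564 is the sole left banded one, the median over members was 0.47 against 0.09 for all genes, and 0 members were called (3 genes in all), a count that an arm of 1 library cannot weigh. All 3 left banded libraries with Rn45s at 0 exceed library PS_9564 in summed member level as deposited but not all after rescaling, and whether the state of Rn45s has a part in that was not tested.

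In the right ventricle, the wall that the band loads, the members stood close to all other genes. Their sum was 394, 315, 449 and 487 FPKM in sham and 516, 466, 650 and 409 FPKM in banded libraries, so the groups overlapped. The median log2 difference was 0.35 as deposited against 0.26 for all genes, and 0.20 against 0.09 rescaled. Tyrobp, Cd14 and Ctss rose, 3 of 35 members against 10.0% of all tested genes, a share near the background. None was called lower, against 4.93% of genes. An unadjusted limma p under 0.05 as deposited was found for 8 members, Cd163 being the one with a lower level. The largest of these p-values, 0.0485 for C1qb, ranked 4146 among the 12100 tested genes, so such p-values were common among all genes. Groups without overlap on both scales were found for 0 members in either direction, against 9.18% of genes higher and 4.89% lower. Under TPM scaling 12 members passed, among 5833 genes, with the median of all genes at 0.65, and a fit of the right ventricular groups alone gave 0 members. Without banded library PS_9552 the count was 0, without PS_9553 or PS_9561 it was 1 (Tyrobp), and without sham library 4 it was 5.

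**Figure D2:**
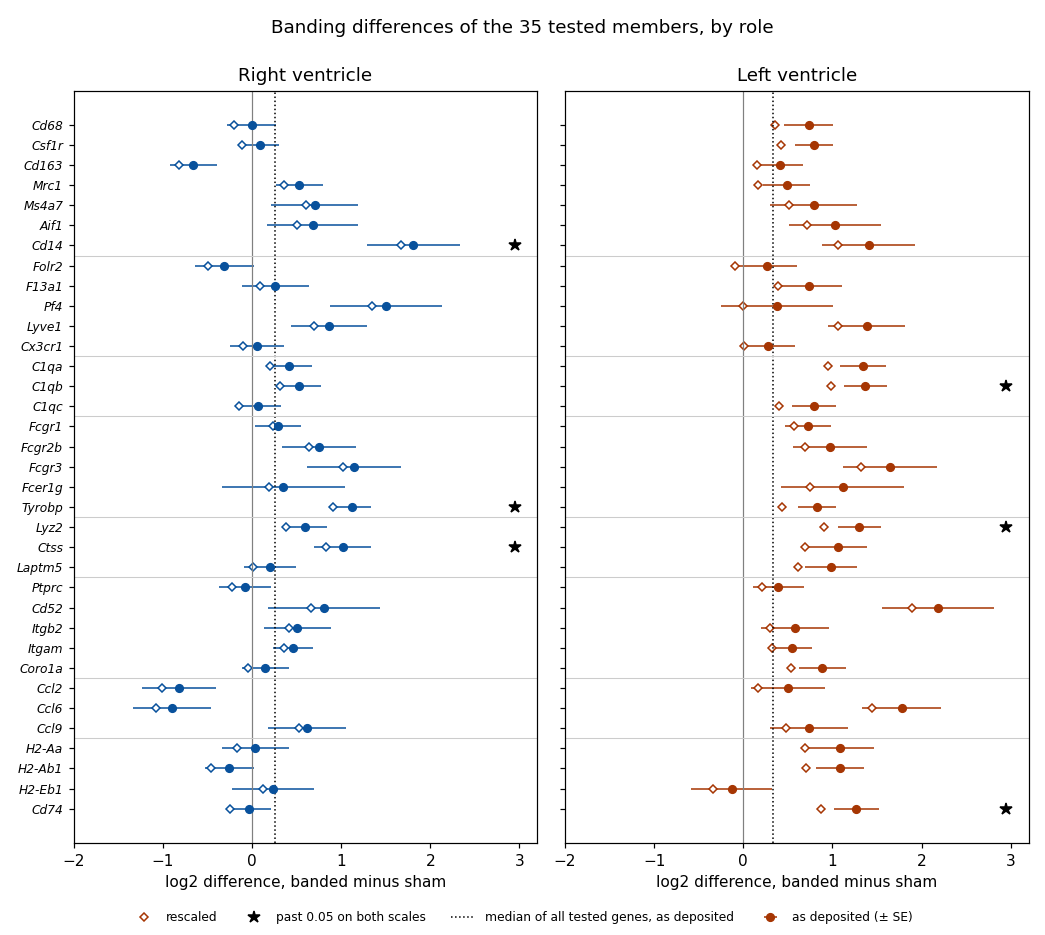
Log2 difference between banded and sham means (x axis, on the log2(FPKM + 1) scale) for the 35 tested members in rows grouped by role, in the right (left panel) and left ventricle (right panel). Filled points with bars are values as deposited ± SE, open diamonds are rescaled values, dotted lines mark the median of all tested genes (0.26 and 0.33), and stars mark the 3 members called in each ventricle.

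Among the genes of macrophage identity, only Cd14, the co-receptor for bacterial lipopolysaccharide, was called, and in the right ventricle. It measured 2.195, 0, 4.33 and 4.08 FPKM in sham and 8.87, 24.0, 9.67 and 3.96 FPKM in banded right ventricles. Banded library PS_9564 lay below sham libraries 3 and 4, and library PS_9553 was the highest. The log2 difference was 1.81 ± 0.52 (SE, n = 4 per group; limma with Benjamini-Hochberg adjustment, adjusted p = 0.0257) and 1.67 rescaled (adjusted p = 0.0433). The call was lost on leaving out sham library 1 or 2 or banded library PS_9552, PS_9553 or PS_9561, with the larger of the 2 adjusted p-values reaching 0.132, and with quantile normalization (adjusted p = 0.0568). Left ventricular Cd14 went from 4.21, 1.54, 3.16 and 4.28 FPKM in sham to 9.82, 19.0, 8.53 and 5.94 FPKM in banded libraries, without overlap, but it was not called there.

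Cd163, the scavenger receptor for haemoglobin bound to haptoglobin, went the other way in the right ventricle. Sham libraries held 1.83, 2.89, 2.74 and 4.80 FPKM and banded libraries 1.11, 0.990, 2.49 and 1.61 FPKM. The groups overlapped through library PS_9561. Its log2 difference was -0.66 ± 0.26 as deposited (adjusted p = 0.0899) and -0.81 rescaled (adjusted p = 0.0165), so it failed the call on the deposited scale. It also passed as lower with quantile normalization and with the length and GC correction. Under each of those settings it was further called lower for the difference between the ventricles and higher in sham right than sham left ventricles. The other members of the group, Cd68, Csf1r, Mrc1 (the mannose receptor), Ms4a7 and Aif1, were called in neither ventricle. Csf1r measured 7.12 to 11.4 FPKM in right sham and 9.30 to 12.5 in right banded libraries, and 7.68 to 10.4 in left sham and 10.3 to 21.5 in left banded libraries. Its left ventricular log2 difference of 0.80 ± 0.21 passed as deposited (adjusted p = 0.0201) and not rescaled (0.42, adjusted p = 0.199).

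Genes that mark long-lived resident macrophages of the heart were not called in either ventricle. Lyve1, a hyaluronan receptor shared with lymphatic endothelium, was the one whose left ventricular groups separated, with 3.11, 2.29, 1.496 and 1.89 FPKM in sham and 7.59, 10.7, 7.61 and 4.20 FPKM in banded libraries. Its log2 difference was 1.38 ± 0.43 (adjusted p = 0.0392 as deposited, 0.145 rescaled). The other lymphatic markers summed to 17.7 to 22.7 FPKM in left sham and 18.3 to 28.2 in left banded libraries. Of 4 tested, 0 were called there and 1 (Mmrn1) was called higher in the right ventricle, where 10.0% of all genes were. The part of lymphatic endothelium in the Lyve1 values was not tested. Folr2 (a folate receptor), F13a1 (a coagulation factor subunit), Pf4 (a chemokine of platelets and macrophages) and Cx3cr1 (the fractalkine receptor) overlapped between groups in the left ventricle. The median log2 difference of these 5 genes in the left ventricle was 0.38 as deposited and 0.01 rescaled, below that of the C1q genes on each of the 5 scalings run. Their right ventricular median was 0.26 as deposited but -0.04 after quantile normalization and -0.25 after the length and GC correction, where the medians of all genes were 0.26, -0.01 and -0.01.

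Of the C1q genes, C1qb rose in the left ventricle and C1qa passed on one scale only. C1q is built from A, B and C chains, each with its own gene. C1qa measured 22.98, 23.01, 25.03 and 37.2 FPKM in left sham and 68.0, 74.8, 75.0 and 58.4 FPKM in left banded libraries. C1qb measured 23.2, 14.0, 19.0 and 32.4 FPKM in sham and 54.1, 58.0, 71.3 and 45.2 FPKM in banded libraries. For both genes the lowest banded library, PS_9564, was still above the highest sham library, 4. C1qb rose by a log2 difference of 1.37 ± 0.25 (adjusted p = 0.00262) and 0.98 rescaled (adjusted p = 0.0376), while C1qa passed as deposited (1.34 ± 0.26, adjusted p = 0.00381) and missed the threshold on the other scale (0.95, adjusted p = 0.0618). The C1qb call held on leaving out sham library 4 and was lost without any other library of the comparison (larger adjusted p up to 0.135).

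C1qc had a smaller left ventricular difference than its partners, which was not tested against theirs. It measured 27.0, 34.9, 20.1 and 29.1 FPKM in left sham and 42.9, 57.6, 53.4 and 40.1 FPKM in left banded libraries, a log2 difference of 0.79 ± 0.25 (adjusted p = 0.0421) that was 0.40 rescaled (adjusted p = 0.441). The ratio of C1qc to C1qa within a library, which no scale factor changes, was 0.782 to 1.52 in left sham and 0.631 to 0.771 in left banded libraries. The right ventricular ratio was 0.924 to 1.40 in sham and 0.783 to 0.920 in banded libraries. Banded libraries thus held less C1qc per C1qa than sham libraries in both ventricles, without overlap, a pattern chosen after its values were seen and given without a test. Most banded libraries were also deeper than the sham libraries, and the part of depth in the ratio was not tested. In the right ventricle none of the 3 genes was called: C1qb measured 30.8, 19.6, 27.9 and 34.9 FPKM in sham and 48.9, 37.5, 49.9 and 28.7 FPKM in banded libraries, with library PS_9564 inside the sham range (log2 difference 0.52 ± 0.25, adjusted p = 0.142).

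The promoters of the C1q genes are shown because the chains are made together and 2 of the 3 genes have a window in the RefSeq table (GRCm38.p6). The 250 bases before the start carry 1 match each to AGGAAGT, a PU.1-type site of myeloid promoters, searched on both strands and given in capitals. Both matches lie on the opposite strand and read ACTTCCT.
C1qb, chr4:136886201-136886450, minus strand: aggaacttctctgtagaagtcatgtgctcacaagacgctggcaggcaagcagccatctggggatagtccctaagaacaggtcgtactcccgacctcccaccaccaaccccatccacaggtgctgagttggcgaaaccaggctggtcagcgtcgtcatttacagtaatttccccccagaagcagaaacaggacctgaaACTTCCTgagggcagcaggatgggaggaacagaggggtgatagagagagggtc
C1qc, chr4:136892915-136893164, minus strand: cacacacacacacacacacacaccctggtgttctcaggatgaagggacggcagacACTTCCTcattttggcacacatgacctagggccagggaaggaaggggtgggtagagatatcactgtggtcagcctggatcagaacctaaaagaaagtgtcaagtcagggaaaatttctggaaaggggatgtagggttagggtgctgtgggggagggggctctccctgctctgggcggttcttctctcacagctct
The match begins 53 bases before the start in C1qb and 195 bases before it in C1qc. Over all members, 28 matched the table with 34 windows, of which 12 (35.3%) held AGGAAGT, against 7.69% of all 32851 windows of the same length. Those windows belong to 11 genes, namely C1qb, C1qc, Ccl6, F13a1, Fcgr1, Folr2, Lyz1, Lyz2, Mrc1, Pf4 and Ptprc. The members were picked as myeloid genes, and a match describes the letters only.

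Of the Fc receptors and their signalling chains, Tyrobp rose in the right ventricle. Tyrobp (DAP12) is the adaptor that passes signals from many activating myeloid receptors. It measured 18.5, 19.7, 15.5 and 17.2 FPKM in sham and 53.3, 39.1, 46.1 and 25.2 FPKM in banded right ventricles. As deposited all banded libraries lay above all sham libraries, while after rescaling library PS_9564 lay inside the sham range. The log2 difference was 1.12 ± 0.22 (adjusted p = 0.00298) and 0.91 rescaled (adjusted p = 0.0185). Of the 3 right ventricular calls this one held most often when a library was left out, in 7 of 8 cases, and it was lost without banded library PS_9552 (larger adjusted p = 0.0569). Tyrobp was also the one member called among libraries with an Rn45s value, where PS_9552 and PS_9553 alone remain of the right banded group. In a fit of the right ventricular groups alone it was not called. All 3 right ventricular calls start from few fragments. In right sham libraries the median was an estimated 5.49 fragments for Tyrobp, 4.25 for Cd14 and 4.39 for Ctss. Left ventricular Tyrobp measured 29.4, 22.5, 32.8 and 32.9 FPKM in sham and 41.7, 62.3, 65.7 and 44.3 FPKM in banded libraries, with a log2 difference of 0.83 ± 0.22 (adjusted p = 0.0176) that was 0.44 rescaled (adjusted p = 0.361). All 4 sham right ventricles lay below all 4 sham left ventricles as deposited, with a log2 difference of -0.69 ± 0.22 that did not pass (adjusted p = 0.0755).

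The receptors themselves were less well measured. Fcgr3, the low-affinity activating receptor, was at 2.24, 0, 8.80 and 0.645 FPKM in right sham and 6.26, 5.31, 7.04 and 2.42 FPKM in right banded libraries. Left ventricular values were 2.49, 1.13, 2.33 and 4.61 FPKM in sham and 10.1, 12.1, 12.9 and 5.67 FPKM in banded libraries. The left groups did not overlap and the right groups did. The left log2 difference was 1.65 ± 0.53 as deposited and 1.32 rescaled (adjusted p = 0.194). Fcgr1, the high-affinity receptor, stayed at or under 1.43 FPKM in every library, with 0, 0.179, 0.200 and 0.567 FPKM in left sham and 1.15, 1.19, 1.11 and 0.687 FPKM in left banded libraries. Fcgr2b, the inhibitory receptor, and Fcer1g, the common gamma chain, overlapped between groups in the right ventricle. Fcer1g spanned 0 to 27.0 FPKM in the right sham group alone.

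Lyz2 was the most abundant member and rose in the left ventricle. It measured 55.2, 31.3, 49.95 and 54.9 FPKM in left sham and 112, 146, 153 and 73.6 FPKM in left banded libraries. All banded libraries were above all sham libraries, library PS_9564 being the lowest. The log2 difference was 1.303 ± 0.24 (adjusted p = 0.00325) and 0.91 rescaled (adjusted p = 0.0258), and it was lost without sham library 1, 2 or 3 or banded library PS_9553 or PS_9561 (larger adjusted p up to 0.098). Right ventricular Lyz2 went from 61.6, 56.1, 70.5 and 69.8 FPKM in sham to 97.6, 78.1, 146 and 81.8 FPKM in banded libraries. Those groups separated as deposited and overlapped once rescaled, with a log2 difference of 0.60 ± 0.24 that passed on neither scale (adjusted p = 0.0961 and, rescaled, 0.202).

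Lyz1, the lysozyme gene of Paneth cells that lies next to Lyz2, was above 0 in 4 libraries, all banded: right PS_9552 (0.709 FPKM) and PS_9561 (1.21 FPKM), left PS_9552 (0.245 FPKM) and PS_9553 (0.733 FPKM). The genes are close copies, and fragments of one can be given to the other, so these low values are uncertain. Their upstream windows are shown for how alike they are, with the AGGAAGT match in capitals (RefSeq, GRCm38.p6).
Lyz2, chr10:117282273-117282522, minus strand: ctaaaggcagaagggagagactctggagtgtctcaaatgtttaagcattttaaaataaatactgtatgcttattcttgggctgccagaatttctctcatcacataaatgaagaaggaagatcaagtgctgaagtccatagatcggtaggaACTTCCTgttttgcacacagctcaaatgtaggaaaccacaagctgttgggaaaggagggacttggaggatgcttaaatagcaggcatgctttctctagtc
Lyz1, chr10:117292869-117293118, minus strand: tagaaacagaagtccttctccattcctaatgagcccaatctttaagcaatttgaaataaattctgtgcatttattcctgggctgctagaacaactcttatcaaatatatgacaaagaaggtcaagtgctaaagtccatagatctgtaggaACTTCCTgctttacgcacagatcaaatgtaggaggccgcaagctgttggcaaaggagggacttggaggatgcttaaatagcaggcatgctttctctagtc
The windows agreed at 200 of 252 aligned columns (79.4%), and in both the match begins 100 bases before the start. The level of Lyz2 was at least 31.3 FPKM and that of Lyz1 at most 1.21 FPKM.

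Ctss, cathepsin S, the protease that trims the invariant chain in antigen-presenting cells, rose in the right ventricle. It measured 4.44, 4.49, 2.31 and 8.33 FPKM in sham and 7.65, 9.40, 16.1 and 9.03 FPKM in banded libraries, where sham library 4 lay above banded library PS_9552. The log2 difference was 1.02 ± 0.32 (adjusted p = 0.0405) and 0.83 rescaled (adjusted p = 0.0454). The call held on leaving out sham library 4 and was lost without any other of the 8 libraries (larger adjusted p up to 0.136). It was also lost with quantile normalization (adjusted p = 0.0594) and with the length and GC correction (adjusted p = 0.0682). Ctss had a left ventricular difference of 1.06 ± 0.32 (adjusted p = 0.0374 as deposited, 0.170 rescaled), from 8.90, 4.27, 7.39 and 6.74 FPKM in sham to 12.3, 17.5, 23.8 and 9.53 FPKM in banded libraries. The difference between the ventricles for Ctss was -0.04, and for Tyrobp and Cd14, the other right ventricular calls, it did not pass either, so none of the 3 was shown to respond in one ventricle more than the other. Laptm5, a lysosomal membrane protein of haematopoietic cells, was called in neither ventricle.

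**Figure D3:**
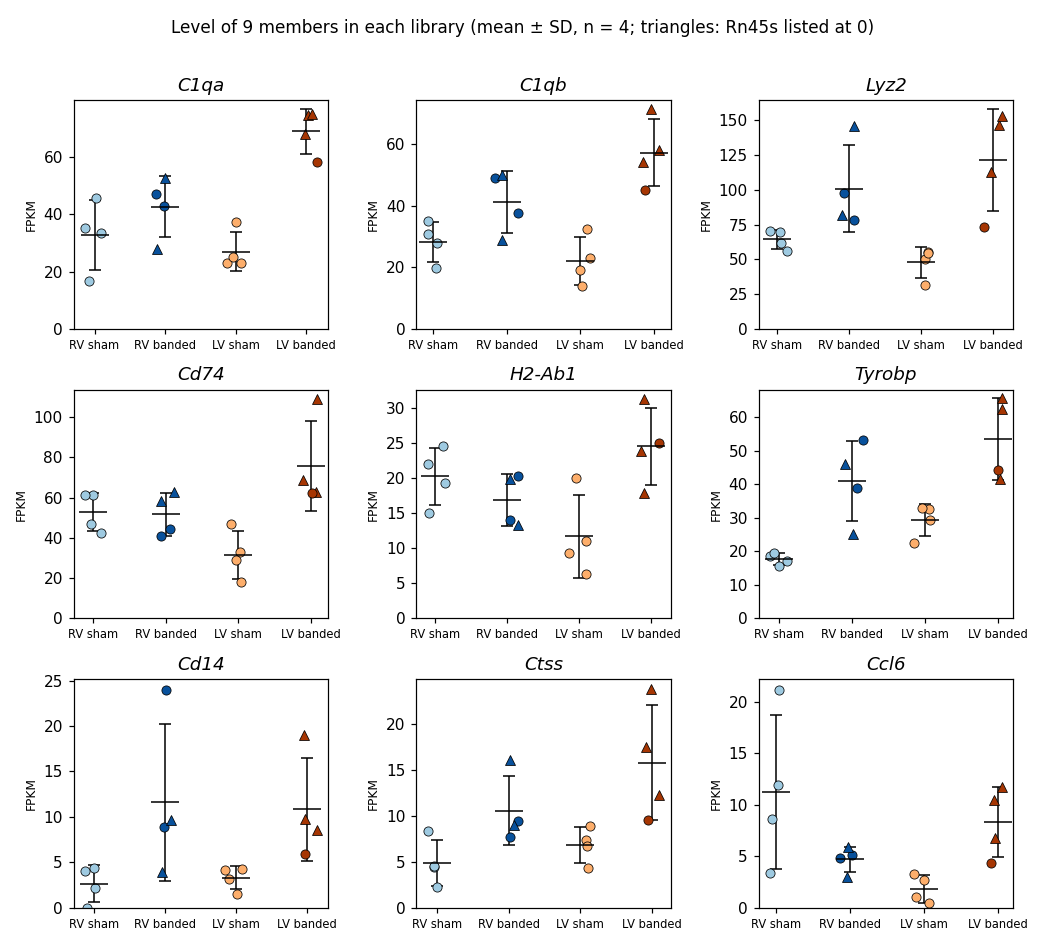
FPKM (y axis, linear from 0) of 9 members in each of the 16 libraries by group, with mean and SD (n = 4); triangles are the 5 libraries with Rn45s listed at 0. C1qa, C1qb and Lyz2 in left banded libraries lie above all left sham libraries, whereas Cd14 and Ctss overlap between right sham and right banded libraries.

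Genes of the leukocyte surface and cytoskeleton were not called in either ventricle. Cd52, a surface glycoprotein of lymphocytes and myeloid cells, had the largest left ventricular difference of the tested members: it measured 1.67, 0, 3.03 and 3.15 FPKM in left sham and 9.61, 13.2, 13.9 and 7.57 FPKM in left banded libraries. The groups did not overlap, and the log2 difference was 2.19 ± 0.63 as deposited (adjusted p = 0.0277) and 1.89 rescaled (adjusted p = 0.117). In right sham libraries Cd52 was at 12.9, 0, 5.16 and 11.6 FPKM, library 2, the shallowest, being the one at 0. Ptprc (CD45, the phosphatase carried by all leukocytes) was low, with 0.454 to 2.505 FPKM over the 16 libraries. Its left ventricular values of 0.886, 0.692, 0.499 and 0.454 FPKM in sham and 0.568, 1.44, 2.04 and 0.787 FPKM in banded libraries overlapped. Itgam and Itgb2, the chains of the complement receptor 3 integrin, stayed at or under 2.55 and 4.81 FPKM. Coro1a, a leukocyte actin regulator, spanned 2.84 to 5.95 FPKM in left sham and 7.58 to 11.4 FPKM in left banded libraries as deposited (log2 difference 0.89 ± 0.26, adjusted p = 0.0325) and did not pass after rescaling (0.54, adjusted p = 0.261).

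Ccl6, a macrophage chemokine, differed between the ventricles in its banding effect. It measured 3.38, 11.9, 8.59 and 21.2 FPKM in right sham and 5.10, 4.86, 5.93 and 3.04 FPKM in right banded libraries. Left ventricular Ccl6 was at 0.419, 3.24, 1.01 and 2.69 FPKM in sham and 6.78, 11.7, 10.5 and 4.39 FPKM in banded libraries. Banded values were thus above all sham values in the left ventricle and, apart from sham library 1, below them in the right. The banding effect itself was not called in the left (1.78 ± 0.44, adjusted p = 0.0135 as deposited and 0.0773 rescaled) or the right ventricle (-0.90 ± 0.44, adjusted p = 0.156), although it was called lower in the right ventricle without sham library 1 (larger adjusted p = 0.037). The difference between the effects was -2.67 ± 0.62 (adjusted p = 0.0151) and -2.52 rescaled (adjusted p = 0.0275), and it kept its call in 12 of 16 cases in which a library was left out, the exceptions being right banded PS_9564, left sham 1 and 3 and left banded PS_9553 (larger adjusted p up to 0.0658). It was also not called without the 2 shallowest right sham libraries, an alternative chosen after seeing the data.

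In sham mice Ccl6 was higher in the right than in the left ventricle, the one member so called, against 2.51% of genes called higher there, and 0 members were called lower, against 1.33%. The log2 difference was 2.02 ± 0.44 (adjusted p = 0.0217) and 2.01 rescaled (adjusted p = 0.0154). It was lost without left sham library 1 or 3 (larger adjusted p up to 0.0727) and shares the sham libraries with the difference between the effects. Without the 2 shallowest right sham libraries, an alternative chosen after seeing the data, the Ccl6 call was lost here too, and Cd52 was called instead. Right sham libraries are the shallowest, and their highest Ccl6 value came from library 4. Of the related chemokines, Ccl2, the main attractant of Ccr2-bearing monocytes, reached 16.3 FPKM in right sham library 2 against 3.48 to 4.34 FPKM in the other 3, and was not called in any comparison. Ccl9 was at 0 to 4.43 FPKM and was not called. The median of the 3 tested chemokine members was below 0 for right ventricular banding (-0.82) and above 0 for left (0.73), with these signs on each of the 5 scalings run.

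Of the MHC class II genes, Cd74 rose in the left ventricle. Cd74 measured 32.9, 28.8, 18.04 and 47.0 FPKM in left sham and 68.8, 62.9, 109 and 62.5 FPKM in left banded libraries. As deposited the groups did not overlap, and library PS_9561 was far above the others. The log2 difference was 1.27 ± 0.25 (adjusted p = 0.00426) and 0.88 rescaled (adjusted p = 0.0385), held without sham library 4 and lost without any other library (larger adjusted p up to 0.123). It was also lost with quantile normalization (adjusted p = 0.0673) and with the length and GC correction (adjusted p = 0.0662). Right ventricular Cd74 was at 42.6, 46.8, 61.1 and 61.1 FPKM in sham and 44.6, 40.9, 63.0 and 58.6 FPKM in banded libraries, groups that overlapped throughout, with a log2 difference of -0.04 and a 95% interval of -0.57 to 0.50. The difference between the ventricles was -1.31 ± 0.36 (adjusted p = 0.0379) and -1.13 rescaled (adjusted p = 0.0453), and this call held without right sham library 1 or 2, left sham library 4 or left banded library PS_9553 and was lost without any of the other 12 (larger adjusted p up to 0.0889). It was lost too with the replicate block (larger adjusted p = 0.089), quantile normalization (adjusted p = 0.143) and the length and GC correction (adjusted p = 0.241). Under TPM scaling it was -0.63 for Cd74 and -2.19 for Ccl6, neither of them called.

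H2-Aa and H2-Ab1, the alpha and beta chains of the I-A molecule, had the same direction as Cd74 in the left ventricle without being called. H2-Ab1 measured 6.39, 11.1, 9.35 and 20.1 FPKM in left sham and 23.9, 17.9, 31.4 and 25.1 FPKM in left banded libraries, overlapping through sham library 4 and banded library PS_9553. Its log2 difference was 1.09 ± 0.27 as deposited (adjusted p = 0.0144) and 0.71 rescaled (adjusted p = 0.196). H2-Aa measured 11.3, 17.0, 20.8 and 29.7 FPKM in sham and 35.1, 36.5, 57.8 and 36.7 FPKM in banded left ventricles (log2 difference 1.09 ± 0.38, adjusted p = 0.0612). The right ventricular median of the 4 MHC class II genes was 0.00 as deposited, -0.21 rescaled and 0.45 under TPM scaling. The medians of all genes there were 0.26, 0.09 and 0.65. With quantile normalization the class II median was -0.15 against -0.01 for all genes. With the length and GC correction it was -0.008 against -0.013. It thus lay below all genes on each scaling but the last, and its sign was not the same throughout. H2-Eb1, the beta chain of the I-E molecule, was far lower than the I-A chains, at 0 to 5.06 FPKM, and was the one tested member with a left ventricular difference below 0 as deposited (-0.13). H2-Aa exceeded H2-Eb1 by 1.55 to 107 times in the 15 libraries where H2-Eb1 was above 0.

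H2-Aa and H2-Eb1 each held 1 match to the letters of the Y box, the element bound by NF-Y in class II promoters, and their last 100 bases before the start are shown to set these promoters side by side (RefSeq, GRCm38.p6). Capitals mark CTGATTGG, searched on both strands (CCAATCAG on the other).
H2-Aa, chr17:34287824-34287923, minus strand: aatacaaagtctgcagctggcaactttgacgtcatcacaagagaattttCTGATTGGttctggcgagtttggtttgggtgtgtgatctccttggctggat
H2-Eb1, chr17:34305767-34305866, plus strand: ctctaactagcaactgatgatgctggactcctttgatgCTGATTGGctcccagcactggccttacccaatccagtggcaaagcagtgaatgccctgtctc
The match begins 51 bases before the start in H2-Aa and 62 in H2-Eb1. CTGATTGG was found in these 2 of the 34 member windows of 250 bases and in 3.83% of all windows. The windows of this build thus share the match, while the levels of the genes in these mice are far apart. The FVB sequence was not examined, and the cause of the low H2-Eb1 level was not tested.

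Over all members, the difference between the ventricles in the banding effect leaned to the left. Its median over members was -0.52 as deposited against -0.07 for all genes, and -0.40 against 0.08 rescaled. Under TPM scaling the median was -0.02 against 0.48 for all genes, with 16 members above and 19 below 0. Ccl6 and Cd74 were the 2 members called lower in the right than in the left effect, against 3.56% of genes, and 0 were called higher, against 0.529%. In banded mice no member was called between the ventricles: 0 were called higher in the right, against 0.174% of genes, and 0 lower, against 1.44%. The median of this comparison was -0.42 against -0.10 for all genes, with 32 of 35 members below 0 as deposited, and library weights, chosen after seeing the data, called Csf1r lower. C1qa came nearest, with a log2 difference of -0.71 ± 0.26 (adjusted p = 0.172).

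**Figure D4:**
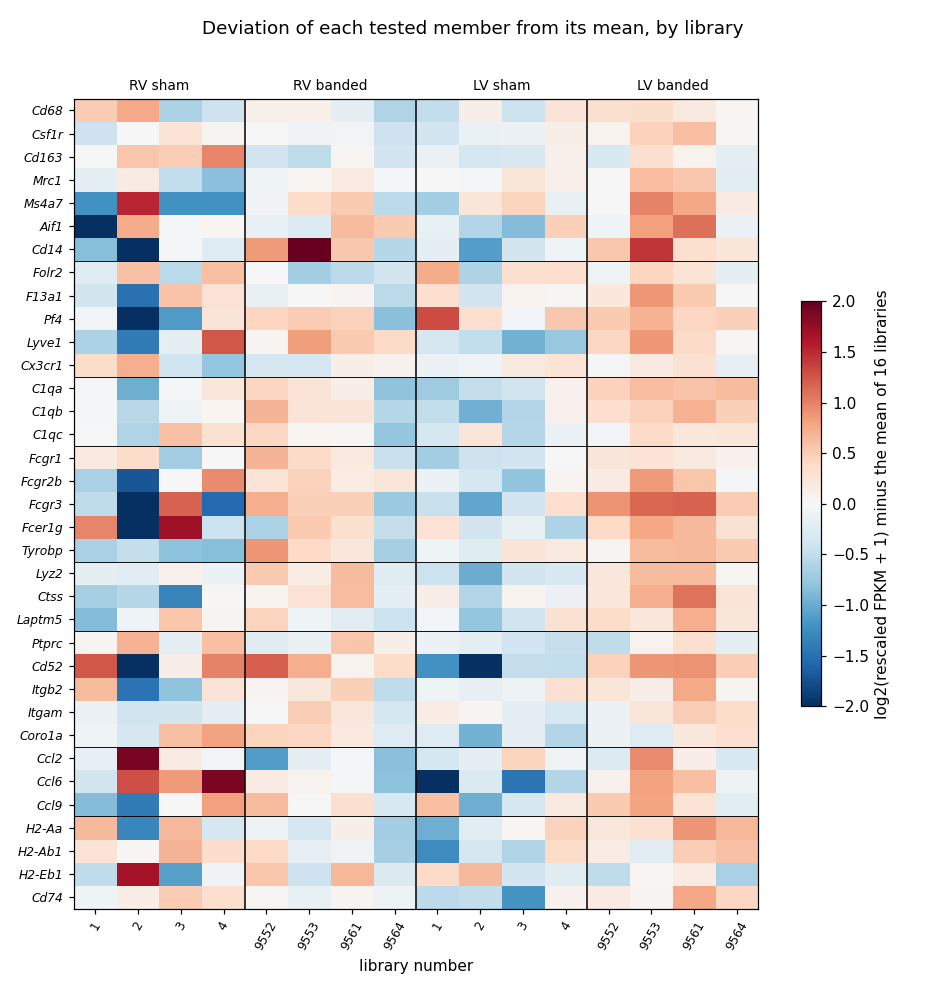
Deviation of each tested member (rows, grouped by role) from its mean over the 16 libraries (columns, by group and library number) in log2(rescaled FPKM + 1), red above and blue below the mean. Left banded libraries PS_9553 and PS_9561 are red in most rows (median deviation 0.61 and 0.54), left banded PS_9564 is near the mean (0.09), and right banded PS_9564 is blue in most rows (-0.43).

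Library by library, the rescaled deviation of the median member was -0.20, -0.35, -0.37 and 0.09 in left sham and 0.17, 0.61, 0.54 and 0.09 in left banded libraries. Sham library 4 and banded library PS_9564 thus stood at the same height. Right ventricular medians were -0.16, -0.33, -0.02 and 0.06 in sham and 0.10, 0.10, 0.20 and -0.43 in banded libraries, where library PS_9564 was below all sham libraries. The spread between libraries within each right ventricular group was therefore wider than the distance between those groups.

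Macrophage genes outside the 38 were called in the right ventricle alone, and the difference between the ventricles was called for 0 of them. Of 17 tested macrophage markers that are no members, 5 rose in the right ventricle, among them Irf8, Mpeg1, Clec4a1 and Sirpa, and 0 in the left, where 10.0% and 2.44% of all genes were called higher. Sirpa, the inhibitory receptor that reads CD47, went from 13.0 ± 3.66 to 27.4 ± 4.80 FPKM (SD, n = 4) in the right ventricle. Mpeg1, a pore-forming protein of macrophage endosomes, went from 1.60 ± 0.558 to 4.88 ± 2.47 FPKM there, with a log2 difference of 1.12 (adjusted p = 0.0146 as deposited, 0.0173 rescaled). The median log2 difference of these 17 genes was 0.45 for right and 0.38 for left ventricular banding, and 0.28 and 0.02 after rescaling.

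Partner genes of the members' pathways were called in small numbers, to be read against 10.0% of all genes called higher and 4.93% lower in the right ventricle and 2.44% higher in the left. Of 14 tested complement components and receptors, 2 rose, Masp1 among them, and Cfp fell in the right ventricle, and Masp1, a protease of the lectin pathway, rose in the left. Cfp (properdin, which stabilises the C3 convertase) went from 12.9 ± 7.42 to 4.10 ± 2.06 FPKM in the right ventricle (SD, n = 4). Of 7 complement inhibitors 0 were called in the right ventricle and 1 in the left, Serping1, the C1 inhibitor, at 62.4 ± 14.6 FPKM in sham and 165 ± 47.0 FPKM in banded libraries (log2 difference 1.37, adjusted p = 0.00136 as deposited and 0.0165 rescaled). Thus the inhibitor of C1 and the C1qb subunit were both higher in left banded libraries.

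Among 19 MHC class I and peptide loading genes, 1 rose in the right ventricle (Pdia3, a disulphide isomerase of the loading complex) and 2 in the left (B2m and Calr). B2m, the light chain of class I, was at 127 ± 25.8 FPKM in left sham and 472 ± 193 FPKM in left banded libraries (log2 difference 1.80, adjusted p = 0.00325 as deposited and 0.0169 rescaled). Of 11 genes of class II processing and costimulation, Rfx5 and Ctsl rose in the right ventricle and 0 in the left. Rfx5, a subunit of the factor that binds the class II X box, was at 0.990 ± 0.672 FPKM in right sham and 2.36 ± 0.387 FPKM in right banded libraries, while the class II genes themselves were not called there.

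Of 12 tested chemokine ligands outside the members, Ccl3, Ccl8 and Cxcl1 rose and Ccl11 and Cxcl14 fell in the right ventricle (3 and 2, beside 10.0% and 4.93% of all genes), and 0 were called in the left. Ccl8, an attractant of monocytes, was listed at 0 in all 4 right sham libraries and averaged 10.2 ± 8.68 FPKM in right banded libraries, so no fold is given. Cxcl14 went from 19.2 ± 7.63 to 6.97 ± 2.89 FPKM (log2 difference -1.35, adjusted p = 0.00395 as deposited and 0.00147 rescaled). Of 4 tested chemoattractant receptors, the scavenging receptors Ackr1 and Ackr2 rose in both ventricles. Ackr2 went from 0.694 ± 0.826 to 3.75 ± 1.05 FPKM in right and from 0.771 ± 0.152 to 3.85 ± 0.984 FPKM in left ventricles.

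The remaining lists held the machinery behind the receptors. Of 15 genes of the phagocyte oxidase and of immunoreceptor signalling, Plcg2 and Lcp1 rose and Cyba fell in the right ventricle, and Arhgdib rose in the left, shares near those of all genes in the right ventricle (10.0% higher and 4.93% lower). Lcp1, the leukocyte actin bundler, went from 0.938 ± 0.768 to 4.99 ± 1.14 FPKM in the right ventricle (log2 difference 1.68, adjusted p = 0.00182 as deposited and 0.00112 rescaled). Of 7 genes of Toll-like receptors and adaptors, Tlr4 and Lbp, which act with Cd14 in sensing lipopolysaccharide, rose in the right ventricle and 0 in the left. The shares over all genes were 10.0% and 2.44%, and 0 of the 7 were called for the difference between the ventricles. Tlr4 was at 0.246 ± 0.324 FPKM in right sham, a mean under the 1 FPKM of the filter, and 3.10 ± 1.82 FPKM in right banded libraries. Of 14 lysosomal genes 2 rose in the right ventricle (Lamp1 and Lipa) and 4 in the left (Ctsc, Ctsz, Lamp1 and Npc2), beside 10.0% and 2.44% of all genes. Lipa, lysosomal acid lipase, went from 5.18 ± 1.93 to 14.2 ± 2.78 FPKM in the right ventricle. Of 5 tested myeloid growth factors and cytokines 0 were called in either ventricle.

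Markers of other cells moved alongside the left ventricular members on the deposited scale, on which all sums here are given. The counts of called markers stand beside 2.44% of all tested genes called higher in the left ventricle. In the right ventricle 10.0% of all tested genes were called higher and 4.93% lower. Erythroid genes summed to 131 to 249 FPKM in left sham and 494 to 1163 FPKM in left banded libraries, without overlap, and 1 of 3 tested rose (the globin Hba-a2). The right ventricular erythroid sum was 237 to 540 FPKM in sham and 210 to 511 FPKM in banded libraries, and Hba-a2 fell. Neutrophil genes summed to 1.57 to 4.89 FPKM in left sham and 6.89 to 23.8 FPKM in left banded libraries, with 7 to 11 and 4 to 5 of 12 at 0, and 0 of 4 tested were called. Those 4 (S100a9, S100a8, Csf3r and Mmp9) had a median log2 difference of 0.83 in the left ventricle (0.67 rescaled). Ngp, a neutrophil granule gene, was not among the tested ones and was at or under 0.24 FPKM there. Monocyte genes summed to 86.5 to 153 FPKM in left sham and 162 to 409 FPKM in left banded libraries, and 0 of 4 tested were called. T cell genes (1.56 to 3.06 against 2.49 to 3.74 FPKM) and B cell genes (4.05 to 7.18 against 4.36 to 5.10 FPKM) overlapped. Cardiomyocyte genes were higher too, at 14656 to 22088 FPKM in left sham and 30141 to 37846 FPKM in left banded libraries, with 3 of 8 tested called. Fibroblast genes summed to 203 to 311 FPKM in left sham and 348 to 684 FPKM in left banded libraries, without overlap, with 0 of 8 called. The part of blood cells, of fibroblasts, of other leukocytes and of the scale of the libraries in the left ventricular result was not tested. Right ventricular monocyte genes summed to 78.2 to 162 FPKM in sham and 171 to 345 FPKM in banded libraries, with 1 of 4 tested called higher, and fibroblast genes to 219 to 262 and 342 to 514 FPKM with 3 of 8 called. Cardiomyocyte genes went from 21959 to 24640 FPKM in right sham to 13091 to 19361 FPKM in right banded libraries, without overlap, with 2 of 8 called lower (Tnni3 and Myl2), and 2 of 4 mesothelial genes fell (Msln and Upk3b). Their part in the right ventricular calls was not tested.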

How the data were processed

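PolyA RNA of 16 libraries was measured, 4 in each of 4 groups. The deposited values are FPKM per gene and library. Per the submitters' processing notes, which give no roles or order, FastQC 0.11.5, STAR 2.5.3a, Cuffdiff, Cufflinks 2.2.1, R 3.3.1 and the build mm9 were used by the authors. Counts were not used here, so depth was estimated from the steps of low FPKM values (assumed fragment length 200 nt) and serves as description only.

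Values were fitted as log2(FPKM + 1) with limma 3.58.1 (R 4.3.3), in 1 fit of 4 group means with a trended prior, over the 12100 genes that reached 1 FPKM in 4 or more libraries. This scale understates changes of low genes. P-values were two-sided and Benjamini-Hochberg adjusted within each comparison across all 12100 genes, and the threshold was 0.05. An otherwise equal fit used values divided by a median-ratio scale factor per library, taken from 9934 genes above 0 in every library, and a call needs both. The fit was tested on simulated data. No pair of libraries held the same values. Alternatives were other scalings, pseudocounts, filters and priors, fits of fewer libraries, each library left out, and a replicate block.

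The members, lists and alternatives were chosen with earlier results of these data known. All members are named. Of related and marker lists, up to 4 genes with the smallest p in the right ventricle were eligible, with other names (such as the left ventricular calls, Clec4a1, Hba-a2 and Ngp) chosen after their values were seen. Promoter windows come from RefSeq (GRCm38.p6), and the sequence of the FVB strain was not examined. Csf1r, C1qa, Cd14, Tyrobp, Cd52, Itgb2, Ccl2, Lyve1, H2-Ab1 and Cd74 had no window. Some genes of these lists are not reported here.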

Additional observations from a re-analysis of the deposited data

Results flagged for a closer look

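In 150 groups of 4 libraries, the gap of the highest or lowest library exceeded Dixon's 95% limit in 8, and chance gives about 5% of groups. Ms4a7 was at 4.99 FPKM in right sham library 2 and at 0 in the other 3, and Ccl2 at 16.3 FPKM in the same library, the shallowest. Lyve1 was low in right banded PS_9552 (3.98 FPKM), Cd53 in right banded PS_9553 (0.172 FPKM) and Fcgr1 in left banded PS_9564 (0.687 FPKM). C1qa was high in left sham 4 (37.2 FPKM), and H2-Aa (57.8 FPKM) and Cd74 (109 FPKM) in left banded PS_9561, where both class II genes stood apart together.

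The banding effect differed between the ventricles for Ccl6, by a log2 difference of -2.67, and for Cd74, by -1.31 (limma, right minus left effect, called on both scales). The Cd74 call was lost with the replicate block and with quantile normalization.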

How the results depend on the processing

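No called value changed sign under any setting run. Over single members, 2131 of 2395 values under other settings and 1509 of 1680 with a library left out kept direction and side of the threshold. Most of these values belong to members without a call, so the shares say little about how stable the calls are. A call of the main fit was lost in 50 of the values with a library left out and in 40 of those under other settings. The counts of members called moved more. In the right ventricle (3) the count was 12 with TPM scaling, 1 with no filter on low values, 0 with only the groups compared and 1 with only libraries that have an Rn45s value. In the left ventricle (3) these settings gave 0, 1, 7 and 0, and the values as deposited alone 15. With only Rn45s libraries the left banded arm is 1 library, assumed to vary like the other groups, so that its 0, also for the difference between the ventricles, says nothing about stability. For the difference between the ventricles (2) TPM scaling, no filter and only libraries with an Rn45s value each gave 0. For sham right against left (1) the count was 4 with TPM scaling, 3 with quantile normalization, 3 with length and GC correction, 2 rescaled alone, and 0 with only the groups compared or with only libraries that have an Rn45s value. Leaving out 1 library gave 0 to 5 in the right, 0 to 5 in the left ventricle, 0 to 3 for the difference and 0 to 3 for sham right against left. Chosen after seeing the data, library weights gave 16 in the left ventricle and 1 (Csf1r) for banded right against left. Leaving out the 2 shallowest right sham libraries, also chosen so, gave 1 (Cd52, not Ccl6) for the difference and likewise for sham right against left. Counts that stayed near their value could hold other genes: with quantile normalization Cd14, Ctss and both Cd74 calls were lost, and with length and GC correction Ctss and both Cd74 calls. Under each of these settings Cd163 was called for right ventricular banding, for the difference between the ventricles and for sham right against left. The causes were not tested, except that fewer libraries enter some settings.

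Right and left libraries share numbers. Their deviations correlated above 0.1 in only 1 of 8 same-numbered pairs (0.151 for PS_9552, the others -0.0911 to 0.0322). These correlations cannot decide whether a number is 1 mouse, since depth and, in some pairs, the state of Rn45s differ between the libraries. The main fit left the numbers unpaired, as nothing labels them as mice. With the replicate block 1 member (Ccl6) was called for the difference between the ventricles, the call of Cd74 being lost, and the counts for the right against left comparisons did not change. The banding comparisons within a ventricle share no numbers.

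At the estimated depth, most members in right sham libraries rest on under 10 fragments, so that a difference there can be missed or set by 1 library.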
